A study of Homo sapiens with 2 samples.

Results

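The miR-15, miR-16, miR-103 and miR-107 group was examined in the oral squamous cell carcinoma line UM-SCC6. Its 9 members were taken by name (miR-15a-5p, miR-15b-5p, miR-15b-3p, miR-16-5p, miR-16-2-3p, miR-195-5p, miR-497-5p, miR-103a-3p and miR-107), and all 9 were among the 1213 small RNAs tabulated, 1178 of which carry miRNA names. Small RNA was sequenced from 2 cultures. UM-SCC6-M was grown from cells that crossed a matrix channel of a microfluidic chip and were collected at the invasion front over 3 rounds, and the labels describe it as invasive with some mesenchymal traits. UM-SCC6 is the parental line, which was not taken through the chip. With 1 library from either culture, the spread between replicates is unknown and no test was run. In bulk RNA, fewer cells holding a miRNA and less of it per cell cannot be told apart.

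MicroRNAs (miRNAs) guide Argonaute proteins to messenger RNAs, mainly by pairing of bases 2 to 8, the seed. A hairpin precursor gives a 5p and a 3p arm, of which one is usually kept as the guide. The miR-15 and miR-16 guides repress messages that drive the cell cycle and survival, such as those of cyclin D1 (CCND1), cyclin E1 (CCNE1), CDK6 and BCL2, and the chromosome 13 pair is deleted in many chronic lymphocytic leukaemias. miR-103a-3p and miR-107 lie in introns of pantothenate kinase genes, whose enzymes start coenzyme A synthesis. They are known as repressors of CAV1 in insulin signalling and of DICER1, the enzyme that cuts miRNA hairpins.

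The mature sequences show why these miRNAs are grouped together and where reads of one name can pass for another. They come from RefSeq (GRCh38.p14), where all 9 names matched, and run 5′ to 3′ with the seed in capitals. Positions are counted from 1 at the 5′ end.
miR-15a-5p: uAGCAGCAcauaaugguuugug
miR-15b-5p: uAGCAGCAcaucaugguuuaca
miR-16-5p: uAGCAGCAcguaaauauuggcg
miR-195-5p: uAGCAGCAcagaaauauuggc
miR-497-5p: cAGCAGCAcacugugguuugu
miR-103a-3p: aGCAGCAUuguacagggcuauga
miR-107: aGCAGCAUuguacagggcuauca
miR-15b-3p: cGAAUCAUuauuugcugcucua
miR-16-2-3p: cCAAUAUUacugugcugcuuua
miR-16-1-3p: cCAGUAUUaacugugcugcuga
miR-103b: uCAUAGCCcuguacaaugcugcu

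The 7 guides shared the stretch AGCAGCA. It filled bases 2 to 8 in miR-15a-5p, miR-15b-5p, miR-16-5p, miR-195-5p and miR-497-5p, and bases 1 to 7 in miR-103a-3p and miR-107, whose seed is therefore GCAGCAU. miR-103a-3p and miR-107 differed by 1 base of 23, G22C with the miR-103a-3p base given first. A read that ends before that position does not tell them apart. miR-15a-5p and miR-15b-5p differed at 4 of 22 bases, the earliest being A12C, and miR-16-5p and miR-195-5p at 2 of the 21 bases compared, G10A and U11G. The 3p arms have seeds of their own. miR-15b-3p and miR-16-2-3p are members through their hairpins, and the seed of miR-16-2-3p, CAAUAUU, also occurs in miR-195-3p. The last pair of lines shows products that are no members. Below, miR-16-1-3p marks the MIR16-1 locus, and miR-103b is compared with miR-103a-3p as the product of the opposite strand.

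The hairpins lie at 6 places in GRCh38, looked up by name in RefSeq and GENCODE release 29 and not stated by the authors. MIR15B (chromosome 3, 160404588 to 160404685, plus strand) and MIR16-2 (160404745 to 160404825) lie in an intron of SMC4, which encodes a condensin subunit. MIR16-1 (chromosome 13, 50048973 to 50049061, minus strand) lies in an intron of the long noncoding RNA gene DLEU2. Its neighbour MIR15A (50049119 to 50049201) overlaps an exon of at least 1 DLEU2 transcript. MIR195 (chromosome 17, 7017615 to 7017701, minus strand) and MIR497 (7017911 to 7018022) overlap exons of their host MIR497HG. MIR103A1 (chromosome 5, 168560896 to 168560973, minus strand) lies in an intron of PANK3, MIR103A2 (chromosome 20, 3917494 to 3917571, plus strand) in one of PANK2 and MIR107 (chromosome 10, 89592747 to 89592827, minus strand) in one of PANK1. miR-16-5p has the same sequence from MIR16-1 and MIR16-2, and miR-103a-3p the same from MIR103A1 and MIR103A2, so their reads do not tell the locus.

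Levels are given as normalized reads, the authors' scaled counts. Whole reads recovered from these values totalled 7699490 for UM-SCC6-M and 8182958 for UM-SCC6. Of 9 squamous or epithelial marker miRNAs chosen, miR-205-5p and miR-141-3p were not analysed here. Of the other 7, 5 were read in both libraries, and the 7 summed to 19716.5 normalized reads in UM-SCC6-M and 16442.8 in UM-SCC6. miR-200b-3p made the sum higher, with 17481 in UM-SCC6-M and 12823 in UM-SCC6. miR-200a-3p was lower, at 1344 in UM-SCC6-M and 2674 in UM-SCC6, and miR-429 and miR-31-5p were slightly lower. miR-200c-3p, another epithelial marker, was near 0 at 1.79 in UM-SCC6-M and 2.66 in UM-SCC6. The defining keratinocyte miRNA miR-203a-3p stood at 2.75 in UM-SCC6-M and was listed at 0 in UM-SCC6, and miR-944 was listed at 0 in both. Of 7 blood cell markers chosen, miR-144-3p and miR-223-3p were not analysed here. Of the other 5, 4 were listed at 0 in both libraries, miR-142-3p and miR-451a among them. The sums were 17.9 in UM-SCC6-M and 24.6 in UM-SCC6. The 4 stromal markers summed to 4.06 in UM-SCC6-M and 12.1 in UM-SCC6, with miR-145-5p and miR-214-3p at 0 in both. The 2 arms of the endothelial miR-126 summed to 550.5 in UM-SCC6-M and 986.1 in UM-SCC6. The part of other cell types in the values below was not tested.

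miR-103a-3p was by far the most abundant member in both cultures. It had 7715 normalized reads in UM-SCC6-M and 9281 in UM-SCC6, which placed it 19th in UM-SCC6-M and 16th in UM-SCC6 among named miRNAs. miR-16-5p followed with 957.4 in UM-SCC6-M and 745.1 in UM-SCC6, and miR-15b-5p with 610.0 in UM-SCC6-M and 468.6 in UM-SCC6. The passenger arms miR-16-2-3p and miR-15b-3p came next, then miR-107. miR-195-5p, miR-15a-5p and miR-497-5p were scarce, between 5.73 and 21.1 normalized reads in the 2 libraries. The members are 21 to 23 bases long, so no correction for length was made, but ligation favours some ends over others and such levels rank miRNAs only roughly.

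**Figure D1:**
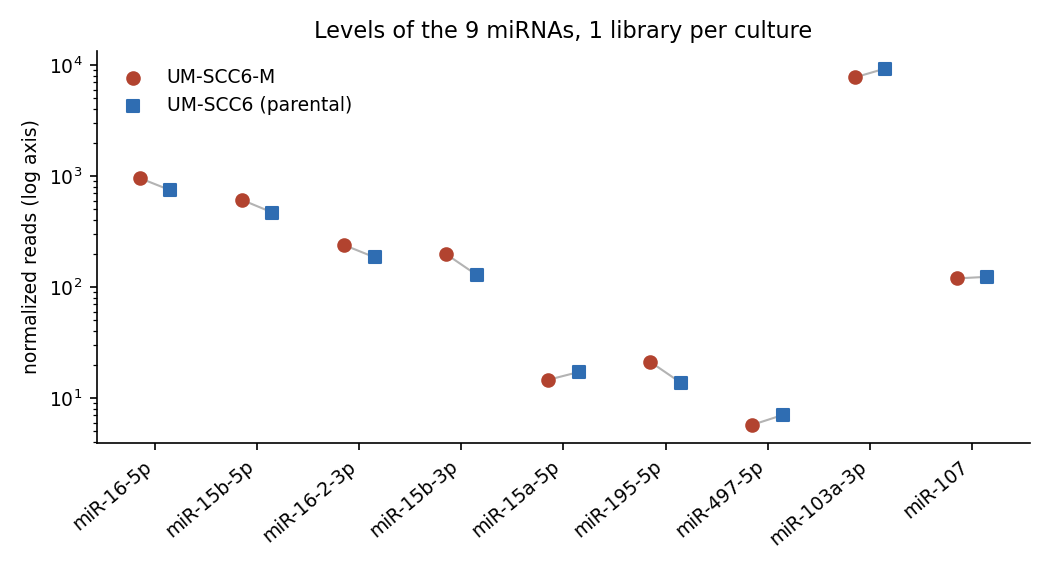
Normalized reads (log axis) of the 9 members in the UM-SCC6-M library (red circles) and the parental UM-SCC6 library (blue squares), 1 library per culture. miR-103a-3p stands at 7715 in UM-SCC6-M and 9281 in UM-SCC6, about an order of magnitude above miR-16-5p, whereas the circles of miR-16-2-3p and both arms of miR-15b, from chromosome 3, lie above their squares.

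The products of the chromosome 3 hairpins were all higher in UM-SCC6-M. In what follows, log2 ratios are UM-SCC6-M over UM-SCC6, and brackets give exact 95% intervals (Clopper-Pearson). With 1 library per culture these cover counting error only. They may understate even that, since copies made by PCR are not independent molecules. miR-15b-5p, a guide that represses cyclin messages, rested on 5109 reads in UM-SCC6-M and 3526 in UM-SCC6. Its log2 ratio was 0.38 (0.32 to 0.44), a level 1.30-fold higher. miR-15b-3p, the other arm of that hairpin, had 198.1 normalized reads in UM-SCC6-M and 128.4 in UM-SCC6. It was 1.54-fold higher (1.42 to 1.67), with the highest log2 ratio of the abundant members, 0.63.

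miR-16-2-3p, which marks the MIR16-2 hairpin alone, had 239.1 normalized reads in UM-SCC6-M and 185.2 in UM-SCC6. It was 1.29-fold higher, a log2 ratio of 0.37 (0.27 to 0.47). miR-16-5p, the guide of both miR-16 hairpins, had almost the same ratio, 0.36 (0.31 to 0.41), on 8018 reads in UM-SCC6-M and 5607 in UM-SCC6. Of the 179 miRNAs that reached 50 normalized reads in one library or both, 28 had a higher ratio than miR-15b-3p, 45 than miR-15b-5p, 49 than miR-16-2-3p and 51 than miR-16-5p. These 4 members therefore lay in the upper part of the range, with many other miRNAs beyond them.

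The products that mark the chromosome 13 hairpins alone had few reads. Under the authors' scaling these were not higher in UM-SCC6-M. The guide arm of MIR16-1 is not among them, as its reads do not tell the locus. miR-15a-5p, the guide of MIR15A, had 14.6 normalized reads in UM-SCC6-M and 17.1 in UM-SCC6, on 122 and 129 reads. Its log2 ratio of -0.23 had an interval from -0.60 to 0.13, and with both libraries scaled to their totals it turned to 0.01, so no direction is given. miR-16-1-3p, which comes from MIR16-1 alone and is no member, had 26 reads in UM-SCC6-M and 82 in UM-SCC6. It was 3.46-fold lower in UM-SCC6-M (2.23 to 5.69), below the floor of 50 normalized reads used for calls. The other arm of MIR15A, miR-15a-3p, was listed at 0 in both libraries.

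Of the chromosome 17 guides, miR-195-5p was higher in UM-SCC6-M. miR-195-5p, known to repress CCND1 and WEE1, had 21.1 normalized reads in UM-SCC6-M and 13.7 in UM-SCC6, on 177 and 103 reads, with a log2 ratio of 0.62 (0.27 to 0.99). Its other arm, miR-195-3p, stood at -0.09 (-0.47 to 0.28) on 122 reads in UM-SCC6-M and 117 in UM-SCC6. miR-497-5p, from the hairpin beside it, had 48 reads in UM-SCC6-M and 53 in UM-SCC6. Its log2 ratio was -0.30 with an interval from -0.89 to 0.29, so a difference was not detectable at this depth.

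miR-103a-3p was slightly lower in the UM-SCC6-M library. It rested on 64609 reads in UM-SCC6-M and 69842 in UM-SCC6, and its log2 ratio was -0.27 (-0.28 to -0.25), a level 1.20-fold lower. The ratio was -0.02 with both libraries scaled to their totals. miR-107, its near twin from PANK1, had 119.4 normalized reads in UM-SCC6-M and 123.5 in UM-SCC6. Its log2 ratio of -0.05 had an interval from -0.18 to 0.08 and turned to 0.19 under scaling to the totals, so no direction is given. miR-103a-2-5p, the other arm of MIR103A2, had 20 reads in UM-SCC6-M and 13 in UM-SCC6, too few to show a difference.

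Reads named miR-103a-3p and miR-103b cannot be told apart with confidence. The miR-103b hairpins lie on the opposite strand of the same PANK3 and PANK2 introns, and mature miR-103b is the exact reverse complement of miR-103a-3p over all 23 bases. miR-103b had 59654 reads in UM-SCC6-M and 64596 in UM-SCC6. That was 0.923 reads per miR-103a-3p read in UM-SCC6-M and 0.925 in UM-SCC6, and the log2 ratio between the libraries was -0.27 for both names. Other such pairs were sought among the 1037 of 1178 named miRNAs that matched in RefSeq, so pairs with an unmatched name are missed. There, 6 pairs overlapped on opposite strands with 50 or more normalized reads under one name. Of these, 5 had values within 10% of each other in both libraries, the pair of miR-103a-3p and miR-103b included. Whether the authors' counting used the strand is not given in the sources used here.

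**Figure D2:**
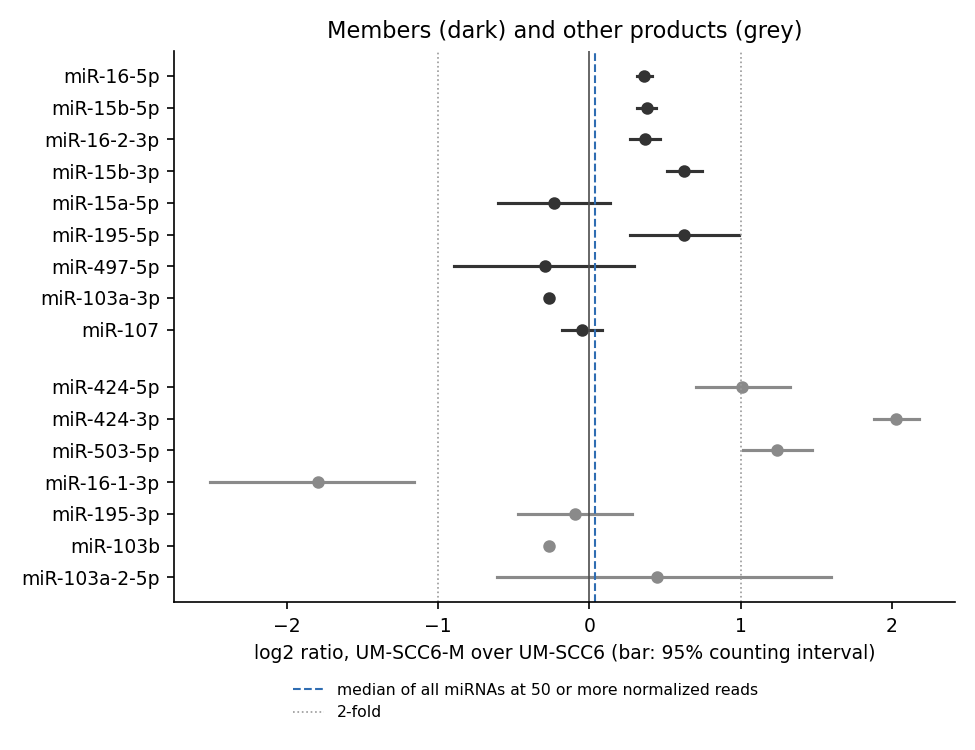
Log2 ratios of UM-SCC6-M over UM-SCC6 for the 9 members (dark) and the other products whose reads are known in both libraries (grey), with exact 95% counting intervals. The dashed line is the median of the 179 miRNAs at 50 or more normalized reads (0.04) and the dotted lines mark 2-fold; all members lie between the dotted lines, while miR-424-3p, miR-424-5p and miR-503-5p lie beyond the right one and miR-16-1-3p beyond the left one.

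The members were also counted by the size of their difference between the cultures. Of the 9 members, 6 reached 50 normalized reads in one library or both, and 0 of these were at least 2-fold apart, the size rule used for a call. Across all miRNAs at that floor, 36 of 179 (20.1%) were that far apart. With only 6 members at the floor, the count of 0 does not set the group apart from that share. At 1.5-fold, 1 of the 6 passed, miR-15b-3p, beside 78 of 179 (43.6%) of all miRNAs. That count depended on the scaling, with 4 of the 6 and 88 of 179 under total reads, and 0 of the 6 and 76 of 179 under a trimmed mean. Of the 8 members with at least 10 normalized reads 5 lay above 0 and 3 below, with a median log2 ratio of 0.36. The 288 miRNAs at that floor had a median of -0.08 and 137 above 0. At the floor of 50 the medians were 0.36 for the 6 members and 0.04 for the 179 miRNAs. Of the members above 0, all but miR-195-5p come from the chromosome 3 hairpins in whole or part. Scaling to the total reads in place of the authors' scaling raises every log2 ratio by 0.24.

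**Figure D3:**
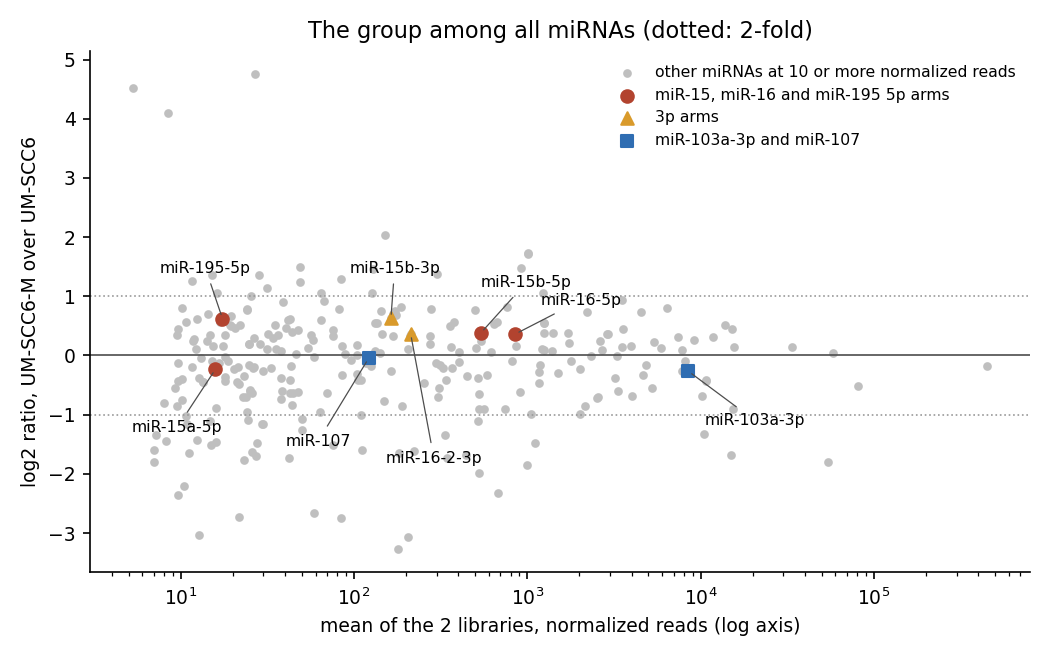
Log2 ratio of UM-SCC6-M over UM-SCC6 against the mean normalized reads of the 2 libraries (log axis) for all miRNAs that reached 10 normalized reads in one library or both. The 8 members at that floor, drawn as circles (5p arms), triangles (3p arms of miR-15b and miR-16-2) and squares (miR-103a-3p and miR-107), lie inside the dotted 2-fold lines, between the 0.63 of miR-15b-3p and the -0.27 of miR-103a-3p.

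The seed classes leaned in different directions under the authors' scaling. The 5 guides with the seed AGCAGCA summed to 1609 normalized reads in UM-SCC6-M and 1252 in UM-SCC6, a log2 ratio of 0.36 (0.32 to 0.40). The 2 guides with the seed GCAGCAU summed to 7834 in UM-SCC6-M and 9404 in UM-SCC6, a log2 ratio of -0.26 (-0.28 to -0.25). Set against each other within a library, which no scaling changes, there were 0.205 reads of the AGCAGCA guides per read of the GCAGCAU guides in UM-SCC6-M and 0.133 in UM-SCC6. That balance was 1.54-fold higher in UM-SCC6-M, a log2 difference of 0.63 with a counting standard error of 0.02. All 9 members together had 9880 normalized reads in UM-SCC6-M and 10969.5 in UM-SCC6. Their log2 ratio of -0.15 turned to 0.091 under scaling to the totals, as the group held 1.07% of the recovered reads in UM-SCC6-M and 1.01% in UM-SCC6.

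The make-up of the group differed in the same way. miR-103a-3p held 78.1% of its reads in UM-SCC6-M (77.8 to 78.4) and 84.6% in UM-SCC6 (84.4 to 84.9). miR-16-5p held 9.69% in UM-SCC6-M (9.49 to 9.89) and 6.79% in UM-SCC6 (6.62 to 6.97). miR-15b-5p held 6.17% in UM-SCC6-M and 4.27% in UM-SCC6. The interval of each of these 3 shares in one library lay outside that in the other, while miR-107 held 1.21% in UM-SCC6-M (1.14 to 1.29) and 1.13% in UM-SCC6 (1.05 to 1.20), with intervals that overlap.

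Ratios of 2 products within 1 library compare hairpins and arms without any scaling. All but the arm balances of miR-15b and miR-16-2 were chosen after their values were seen. The proportions of miR-16-5p, which comes from chromosomes 3 and 13, to miR-15b-5p and to miR-16-2-3p were close in both cultures, with 1.57 reads of miR-16-5p per read of miR-15b-5p in UM-SCC6-M and 1.59 in UM-SCC6. miR-16-5p and miR-16-2-3p had 8018 and 2002 reads in UM-SCC6-M, and 5607 and 1394 reads in UM-SCC6. The log2 ratio of this pair differed by -0.01 between the cultures, within its counting standard error of 0.06. The balance of miR-15b-5p over miR-15b-3p lay at 3.08 in UM-SCC6-M and 3.65 in UM-SCC6, a log2 difference of -0.24 (SE 0.07) toward the 3p arm. Of the 30 hairpins whose arms both reached 50 normalized reads, 9 had arms at least 2-fold apart in this measure. The median absolute log2 difference was 0.76, and 8 had a smaller one than miR-15b. This set counts miR-423 and miR-3184 separately, although they are names on opposite strands with nearly equal values.

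Other ratios, within and between loci, differed between the cultures by varying amounts, given here as fold differences with normal intervals for the counting error. miR-16-2-3p of chromosome 3 and miR-16-1-3p of chromosome 13 mark the separate sources of miR-16-5p, and their ratio was 75.6 in UM-SCC6-M and 16.9 in UM-SCC6. It was 4.47-fold higher in UM-SCC6-M (2.87 to 6.96), on only 26 and 82 reads of miR-16-1-3p. For the miR-15 guides, miR-15b-5p over miR-15a-5p, the ratio was 41.7 in UM-SCC6-M and 27.2 in UM-SCC6, or 1.53-fold higher (1.19 to 1.97). Summed over the products that mark a single locus, the chromosome 3 hairpins had 59.1 reads per chromosome 13 read in UM-SCC6-M and 27.8 in UM-SCC6, or 2.12-fold more (1.72 to 2.62). Against the chromosome 17 hairpins the ratio was 25.2 in UM-SCC6-M and 21.5 in UM-SCC6, a fold difference of 1.17 whose interval (0.997 to 1.38) includes equality. Within the chromosome 17 locus the proportions differed as well. The arms of MIR195, miR-195-5p over miR-195-3p, stood at 1.45 in UM-SCC6-M and 0.881 in UM-SCC6, 1.64-fold higher (1.16 to 2.34). miR-195-5p over its neighbour miR-497-5p stood at 3.66 in UM-SCC6-M and 1.93 in UM-SCC6, 1.89-fold higher (1.20 to 2.99), on 48 and 53 reads of miR-497-5p. miR-103a-3p over miR-107 was 64.6 in UM-SCC6-M and 75.1 in UM-SCC6, a log2 difference of -0.22 (SE 0.07).

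**Figure D4:**
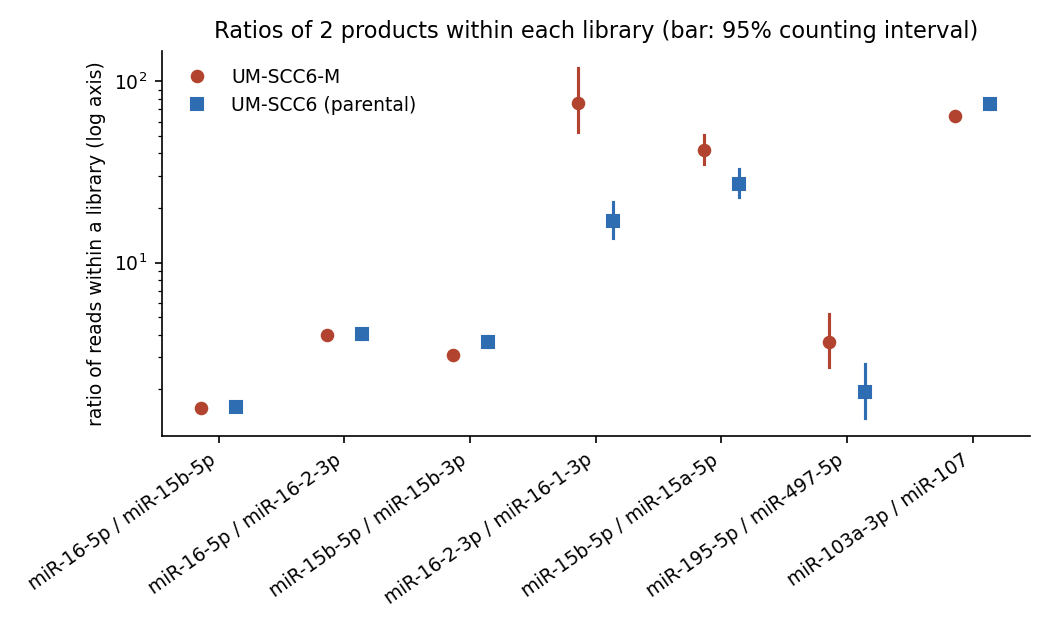
Ratio of the reads of 2 products within each library (log axis), for UM-SCC6-M (red circles) and UM-SCC6 (blue squares), with exact 95% counting intervals. miR-16-5p over miR-15b-5p and over miR-16-2-3p lies at the same height in both cultures, whereas miR-16-2-3p over miR-16-1-3p lies at 75.6 in UM-SCC6-M and 16.9 in UM-SCC6.

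Among related products outside the group, those of the chromosome X hairpins and miR-16-1-3p lay further from 0 than any member, while miR-195-3p, miR-103b and miR-103a-2-5p lay within the members' range. Of the 13 products listed, 10 are in the table and the other 3 (miR-646, miR-497-3p and miR-103a-1-5p) were not analysed here. miR-424-5p carries the AGCAGCA seed of the miR-15 guides and had 34.0 normalized reads in UM-SCC6-M and 16.9 in UM-SCC6, a log2 ratio of 1.01 (0.71 to 1.33). miR-503-5p, whose seed AGCAGCG differs at its last base, had 574 reads in UM-SCC6-M and 218 in UM-SCC6, with a log2 ratio of 1.24 (1.01 to 1.47). miR-424-3p, whose seed is another, had 241.9 normalized reads in UM-SCC6-M and 59.3 in UM-SCC6, a log2 ratio of 2.03. Their hairpins are neighbours on chromosome X, and the levels of both remained below that of miR-15b-5p. miR-6838-5p, also with the AGCAGCA seed, and miR-503-3p were listed at 0 in both libraries. With miR-424-5p added, the sum of the AGCAGCA miRNAs had a log2 ratio of 0.37, close to the 0.36 of the members alone.

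In the authors' deposited table, which compares the 2 libraries and not the 2 conditions, 4 members had low q-values. These were miR-16-5p (8.4e-17), miR-15b-5p (1.66e-11), miR-15b-3p (6.4e-07) and miR-16-2-3p (0.000108), all of them products of the chromosome 3 hairpins in whole or part. miR-103a-3p, with far more reads, had a deposited q-value of 0.878. Its log2 ratio was -0.27 under the authors' scaling and -0.02 with both libraries scaled to their totals. For the scarce miR-195-5p the deposited q-value was 0.368. Which scaling lies behind the q-values was not examined here, so they may not belong to the log2 ratios given above. Of the miRNAs outside the group that reached 50 normalized reads, those whose ratio lay nearest to that of the summed members were miR-361-3p (-0.16), miR-27b-3p (-0.17) and miR-500a-3p (-0.17), a likeness that rests on 1 ratio between 2 libraries.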

How the data were processed

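Per the labels' protocols, 3 µg of total RNA per culture went through adaptor ligation and PCR, and products of 140 to 160 bp were cut from a gel. Bowtie was used, per the submitters' processing notes. Not given in the sources used here are its version, the genome build, the miRNA release and the tools for counting and scaling.

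The authors deposited 1 table with a column of scaled read signal per library, called normalized reads here. Listed values were multiples of the worth of 1 read (0.119 for UM-SCC6-M and 0.133 for UM-SCC6, largest deviation 0.000346 reads), and values below 1 were listed as 0. Dividing by that worth gave the recovered reads. Where 1 library was listed as 0, its reads came from the deposited log2 fold change. That log2 column and the p-value and q-value columns are the authors' own comparison, per the file headers, and made no call here.

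Log2 ratios, and the ratios of 2 products, were computed with 0.5 reads added to each count. Ratios between libraries and shares have exact 95% intervals. Differences between the cultures in a ratio of 2 products or sums have Poisson standard errors and normal 95% intervals on the log2 scale. A call needed a difference of at least 2-fold with 50 or more normalized reads in the higher library. Medians used members at 10 or more. The miRNAs named were the members, the listed relatives and other arms, and the 3 other miRNAs of nearest ratio at 50 or more normalized reads. The members and lists were chosen with earlier results of these data known. The loci compared by sums, the 1.5-fold count under other scalings, the pairs of opposite strands and the replacement of miR-103a-3p by miR-103b were added after seeing the data. The calculation was checked on simulated counts. Alternatives were other scalings, floors, thresholds and added reads. Python 3.11.15 with numpy 2.4.6, pandas 2.3.3, scipy 1.17.1 and matplotlib 3.10.9 was used.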

Additional observations from a re-analysis of the deposited data

How the results depend on the processing

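No member was at least 2-fold apart under any of the 4 other scalings, the floors of 10 and 200 normalized reads, no floor, a 4-fold threshold or intervals wholly beyond 2-fold, and 1 was at 1.5-fold. With that threshold and another scaling, a combination added after seeing the data, 4 members passed under total reads and 0 under a trimmed mean of M-values. The median log2 ratio of the members was 0.61 with both libraries scaled to their totals. The log2 ratio of the summed members was 0.091 under total reads, -0.19 under a trimmed mean of M-values, -0.12 under the median of ratios and -0.0812 under totals without the 10 most abundant miRNAs, so its sign follows the scaling. The share of miR-103a-3p in the group was 79.3% in UM-SCC6-M and 85.7% in UM-SCC6 with miR-107 added to it, and 81.7% in UM-SCC6-M and 87.1% in UM-SCC6 over guide arms only. Of 54 alternative values of single members, 43 stayed inside the counting interval and 3 changed sign, for miR-107 and miR-15a-5p. With few reads, differences for miR-15a-5p, miR-195-5p, miR-497-5p and miR-16-1-3p carry wide counting error, and with 1 library per culture the spread between cultures is not known.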
